A study of Homo sapiens with 12 samples.

Results

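The 10 genes described here belong to the stress programme run by the transcription factors ATF4 and CHOP. They are the transcription factor genes ATF4, DDIT3 (which encodes CHOP), CEBPB, CEBPG, ATF3 and ATF5, the response genes TRIB3, PPP1R15A and CHAC1, and GDF15, which encodes a secreted cytokine of the TGF-beta superfamily. They were taken by gene symbol, each symbol had 1 row, and together they are 10 of the 53361 rows in the deposited gene table. RNA was sequenced from hTERT-RPE1, a line of human retinal pigment epithelium made immortal by telomerase, in 12 libraries that fall into 4 groups of 3. Reversine, which inhibits the spindle checkpoint kinase Mps1 and makes cells missegregate chromosomes, was given at 0.5 µM for 24 h, and these cells were collected 48 h after its removal. BafA1 (bafilomycin A1), an inhibitor of the proton pump of lysosomes, was given at 0.1 µM for 6 h, and MG132, a proteasome inhibitor, at 1 µM for 24 h. The control cells were untreated, and the labels give them neither a solvent nor a culture time, so solvent, time and drug cannot be told apart. The labels do not say whether the 3 libraries of a group were separate cultures, so p-values measure the spread between these libraries, which may be technical.

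In the integrated stress response, kinases that sense unfolded protein, amino acid shortage, double-stranded RNA or heme shortage phosphorylate the translation factor eIF2alpha. General translation then falls while the ATF4 message is translated more efficiently through its upstream open reading frames, and ATF4 pairs with C/EBP proteins to switch on DDIT3, ATF3, TRIB3, CHAC1 and genes of amino acid supply. Much of ATF4 control is therefore translational, and the RNA levels given here do not measure ATF4 or CHOP protein. GDF15 is a stress cytokine whose gene is also a target of p53.

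All values are FPKM, the fragments of a transcript divided by its length in kilobases and by the library's mapped reads. Levels of different genes can be set side by side, but low ones only roughly. The value estimated for a gene with no reads differs between genes, and in controls it averaged 1.37 FPKM for ATF3 and 0.026 for CEBPG. Differences are log2 differences of FPKM + 1 from 1 limma fit of the 4 groups over the 30712 genes that reached 1 FPKM in 3 or more libraries, and a gene was called at an adjusted p under 0.05. All 10 genes passed that filter, but GDF15 passed it through the 3 reversine and 3 MG132 libraries alone. The estimated depth was 7730000 to 9600000 reads after reversine, 6340000 to 8250000 after BafA1, 7610000 to 10950000 after MG132 and 8640000 to 11430000 in controls. The slope of the values against GC content was negative in 4 libraries and positive in the other 8. It was -0.33 log2 units per 10 percentage points in reversine 1, -0.08 in BafA1 3, -0.42 in MG132 2 and -0.44 in MG132 3. Control 3, MG132 2 and MG132 3 formed a class of their own by the length that the lowest values imply was taken off each transcript, close to a mean fragment length (222 to 281 nt, where the other 9 libraries had 118 to 152 nt). This is called the fragment class. Of 10 markers of retinal pigment epithelium, MITF and OTX2 were present at 9.29 to 20.3 and 10.1 to 17.3 FPKM, while the visual cycle gene RPE65 lay near the floor in every library, at 0.04 to 0.06 FPKM. The summed level of that list was 36.2 to 43.9 FPKM after reversine, 39.7 to 49.2 after BafA1, 35.5 to 38.7 after MG132 and 41.0 to 46.6 in controls. Summed levels of 4 epithelial markers, almost all from the keratin genes KRT8 and KRT18, were 449 to 708 FPKM after MG132 and 1204 to 1363 in controls, while CDH1 averaged 6.56 FPKM after MG132 and 2.85 in controls. Those of 5 mesenchymal and fibroblast markers were 3705 to 12307 FPKM after reversine, 9155 to 20074 after BafA1, 5960 to 14936 after MG132 and 17594 to 26679 in controls. VIM, which made up most of that sum, averaged 8528 FPKM after reversine, 8994 after MG132 and 21382 in controls. THY1 averaged 591 after reversine, 73.3 after MG132 and 967 in controls. Not all of that list fell, as COL1A1 averaged 40.8 FPKM after reversine, 30.9 after BafA1, 9.65 after MG132 and 21.3 in controls. PDGFRB averaged 18.8 after reversine, 38.9 after BafA1, 16.5 after MG132 and 20.2 in controls, and group means of COL1A2 were 2.23 to 2.87. The part of these shifts in the results was not tested. The RNA came from whole cultures, in which fewer cells expressing a gene and less RNA per cell cannot be told apart.

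Promoter sequences of the members were searched for the elements that ATF4, CHOP and their partners are known to bind, because the 10 genes are grouped by that control. RefSeq held 19 promoter windows for the 10 genes on GRCh38.p14, each from 250 bases before to 50 after an annotated start. The composite element for ATF4 and C/EBP proteins, TGATGNAA on either strand, was present in a window of ATF3, CHAC1 and CEBPG, which is 3 of 10 genes, against 4.46% of all genes with such a window and 3.62% of 35116 windows. The cAMP/ATF element TGACGTCA was present in PPP1R15A, against 2.25% of genes. The C/EBP element TTGCNNAA matched in PPP1R15A, ATF3 and ATF5, against 12.67% of genes, and any overlap between elements was allowed. For each of these 5 genes a stretch before a start that holds a match is shown first, with the matched letters in capitals, and the DDIT3 stretch is shown because its RNA differed most from control after MG132.
ATF3, chr1:212565157-212565333, plus strand: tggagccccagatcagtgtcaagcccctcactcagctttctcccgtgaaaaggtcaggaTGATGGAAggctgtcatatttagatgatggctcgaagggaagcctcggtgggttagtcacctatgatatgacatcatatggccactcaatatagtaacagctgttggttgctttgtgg
CHAC1, chr15:40953251-40953280, plus strand: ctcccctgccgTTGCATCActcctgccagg
CEBPG, chr19:33373896-33374112, plus strand: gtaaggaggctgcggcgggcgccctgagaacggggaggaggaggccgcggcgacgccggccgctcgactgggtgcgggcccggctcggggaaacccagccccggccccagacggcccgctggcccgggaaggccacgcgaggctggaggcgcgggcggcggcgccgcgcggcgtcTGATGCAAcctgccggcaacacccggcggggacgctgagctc
PPP1R15A, chr19:48872171-48872391, plus strand: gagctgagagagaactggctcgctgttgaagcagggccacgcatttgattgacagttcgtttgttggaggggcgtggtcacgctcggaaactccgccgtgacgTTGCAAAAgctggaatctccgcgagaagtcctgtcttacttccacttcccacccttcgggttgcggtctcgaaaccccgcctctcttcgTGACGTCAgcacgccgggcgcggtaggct
ATF5, chr19:49928791-49928820, plus strand: ctggcaggaaaTTCTGCAAgcaaggaaagg
DDIT3, chr12:57520518-57520764, minus strand: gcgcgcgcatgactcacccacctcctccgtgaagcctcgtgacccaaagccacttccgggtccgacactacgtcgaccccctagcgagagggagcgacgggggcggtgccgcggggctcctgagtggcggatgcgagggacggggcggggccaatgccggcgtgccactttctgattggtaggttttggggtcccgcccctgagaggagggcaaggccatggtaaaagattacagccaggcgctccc
In ATF3 the match TGATGGAA began 191 bases before the start, and in CEBPG the match TGATGCAA began 42 bases before it. In CHAC1 the element lies on the minus strand and reads TTGCATCA on the plus strand, beginning 209 bases before the start of that window, inside an exon of another annotated transcript. PPP1R15A had TGACGTCA from 58 bases and TTGCAAAA from 147 bases before its start, and ATF5 had the C/EBP element on the minus strand, TTCTGCAA on the plus strand, from 104 bases before 1 of its starts. Further C/EBP matches that lay across or after a start, in ATF3, PPP1R15A and ATF5, are not shown. The DDIT3 stretch has no capitals because none of the searched elements was found in its windows. The heat shock element and the p53 decamer were found in 0 of the 10 genes, against 0.61% and 8.06% of all genes. A match in letters describes the window and is not a measured binding site, and the absence of a match says only that these letters are not in it.

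MG132 moved most of the set, reversine moved a small part of it, and no member passed the test after BafA1. After MG132, 8 of 10 genes were higher than in controls, and ATF5 and CHAC1 did not pass, where 14.8% of all tested genes were called in either direction and 7.14% as higher. After reversine, DDIT3, ATF3 and GDF15 rose and 7 genes did not pass, where 2.09% of tested genes were called and 0.801% as higher. These 3 calls rest on a spread taken from all 4 groups, since fitting these 6 libraries by themselves gave limma adjusted p of 0.0772 for DDIT3 and GDF15 and 0.0841 for ATF3. After BafA1, 0 of 10 genes were called by limma, where 0.264% of tested genes were called, and 5 of 10 had an unadjusted p under 0.05, against 7.12% of tested genes. The 10 genes had a median log2 difference of 0.34 between reversine and control, -0.12 between BafA1 and control and 1.66 between MG132 and control, where the medians of all tested genes were 0.09, 0.14 and 0.04. These comparisons use the same 3 control libraries. The groups did not overlap for 7 genes after reversine (20.1% of tested genes), 7 after BafA1 (23.1%) and 8 after MG132 (33.9%). The 10 genes were chosen with earlier results of these data known. GDF15 passed the filter through its reversine and MG132 libraries alone, so its calls against control or BafA1 are not free of that filter. The shares beside the counts of the 10 genes are therefore a description and not a test of the set.

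**Figure D1:**
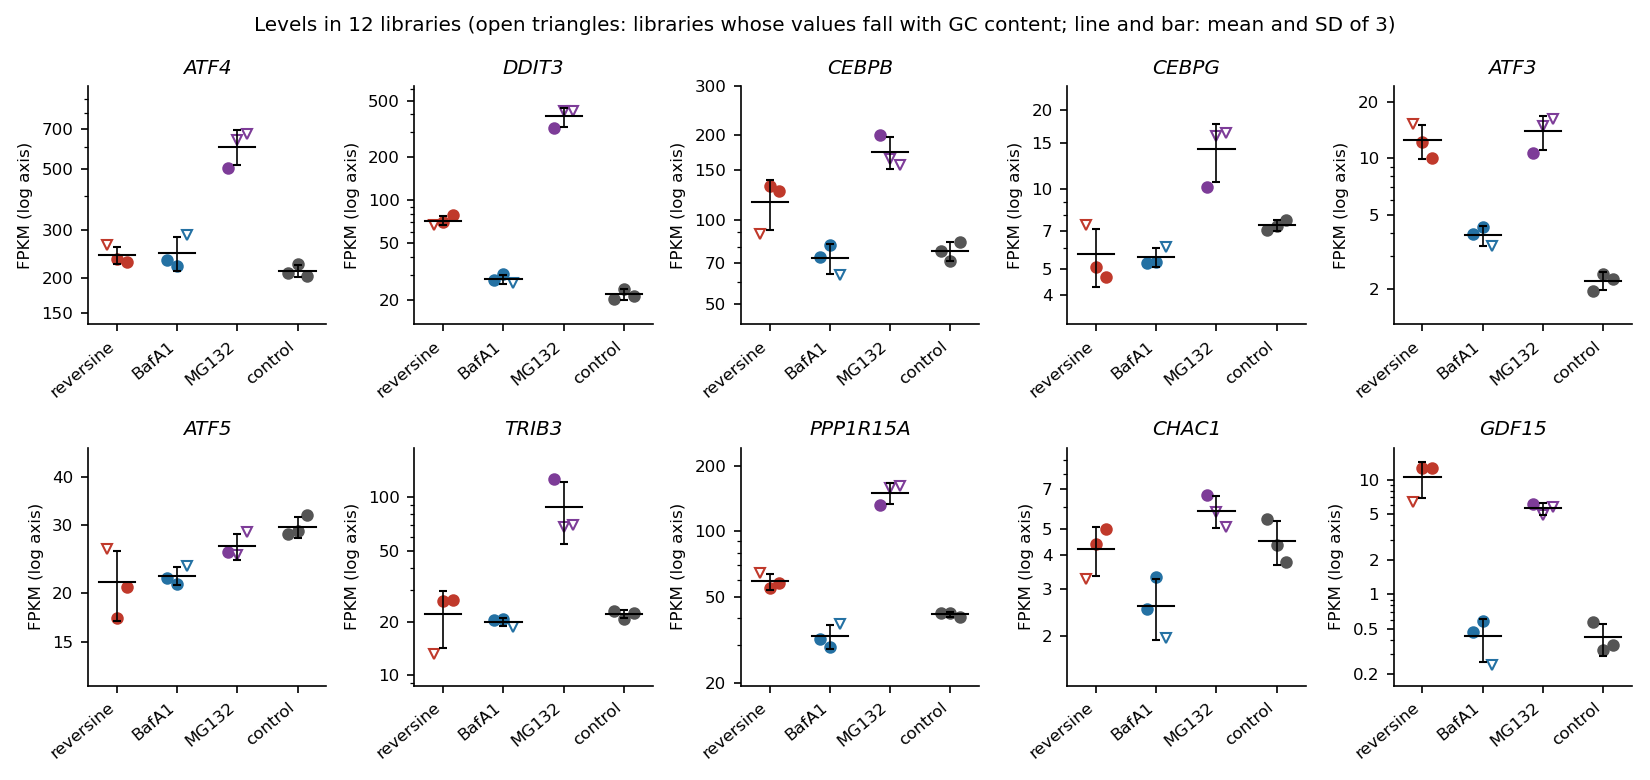
FPKM of the 10 genes on log axes in the 3 libraries of each group, with the mean and SD of 3 as a line and bar; open triangles mark the 4 libraries whose values fall with GC content. DDIT3 lies between 319 and 422 FPKM after MG132 and between 20.3 and 23.9 in controls, and GDF15 lies above 4 FPKM in the reversine and MG132 libraries and below 1 in the BafA1 and control libraries.

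ATF4, the transcription factor at the head of the programme, had the highest level of the 10 genes in every group. It was at 263, 235 and 229.6 FPKM in the reversine libraries, 234, 221 and 288 after BafA1, 503, 638 and 669 after MG132, and 208, 225 and 204 in controls. The MG132 libraries stood clear of all others, the reversine libraries lay just above the controls without overlap, and the BafA1 libraries overlapped the controls. ATF4 averaged 604 ± 88.2 FPKM after MG132 and 213 ± 11 in controls (mean ± SD, n = 3 each). The log2 difference was 1.49 ± 0.13 (SE, limma adjusted p 0.000141), and those of reversine and BafA1 were 0.19 (adjusted p 0.62 by limma) and 0.21 (adjusted p 0.73). In order of level, BafA1 (248), reversine (243) and control (213) are neighbours that did not pass a test against each other.

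DDIT3 encodes CHOP, a C/EBP-family factor that forms dimers with its relatives and promotes death in prolonged stress. Its level was 67.3, 70.55 and 78.1 FPKM after reversine, 27.4, 30.25 and 26.3 after BafA1, 319, 422 and 421 after MG132, and 20.3, 23.9 and 21.4 in controls. All 4 groups were separate, in the order MG132, reversine, BafA1, control. MG132 gave 17.7 times the control mean, with 387 ± 59.3 FPKM after MG132 and 21.9 ± 1.86 in controls (log2 difference 4.08 ± 0.14, limma adjusted p 2.29e-06). Reversine gave 3.29 times the control mean, with 72.0 ± 5.55 FPKM against 21.9 ± 1.86 in controls (log2 difference 1.67 ± 0.14, limma adjusted p 0.000569). The BafA1 difference of 0.34 did not pass (limma adjusted p 0.478, unadjusted 0.0344). In the ranking of the 10 genes by level, DDIT3 was 3 after reversine, 4 after BafA1, 2 after MG132 and 6 in controls. Among all tested genes its mean stood at percentile 93.9 after reversine, 67.9 after BafA1, 99.0 after MG132 and 69.1 in controls. It shares its locus with MARS and MBD6, genes of the opposite strand, and no strand setting for counting is stated. Neither of these was called after MG132, with log2 differences of -0.85 for MARS and -0.45 for MBD6 (limma adjusted p 0.184 and 0.236), nor after reversine (-1.06 and -0.48, limma adjusted p 0.392 and 0.445).

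CEBPB and CEBPG encode C/EBP-family partners of ATF4 and CHOP. CEBPB was at 88.5, 132 and 126 FPKM after reversine, 73.7, 81.1 and 63.5 after BafA1, 200.2, 165 and 157 after MG132, and 77.5, 71.0 and 83.0 in controls. The MG132 and reversine libraries lay above every control, with reversine 1 the lowest of its group, and the BafA1 libraries overlapped the controls. CEBPB averaged 174 ± 22.9 FPKM after MG132 and 77.1 ± 6.00 in controls (log2 difference 1.16 ± 0.17, limma adjusted p 0.00227). The reversine difference of 0.56 did not pass (limma adjusted p 0.187). It passed without reversine 1 (0.74, limma adjusted p 0.0433), without the 4 libraries of negative GC slope (0.74, 0.043) and with a correction for GC content and length (0.68, 0.00369), in a range of 0.00369 to 0.462 over 16 alternatives. CEBPB has a GC-rich transcript (66.2% GC), the highest share of the 10 genes.

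CEBPG was at 7.32, 5.1 and 4.66 FPKM after reversine, 5.27, 5.31 and 6.07 after BafA1, 10.2, 15.9 and 16.4 after MG132, and 7.01, 7.26 and 7.69 in controls. Its MG132 libraries lay above the controls, its BafA1 libraries lay below them, and its reversine libraries overlapped them. CEBPG averaged 14.2 ± 3.46 FPKM after MG132 and 7.32 ± 0.34 in controls. The log2 difference of 0.84 ± 0.24 passed narrowly (limma adjusted p 0.0465) and lost its call in 12 of 16 alternatives, in a range of 0.00557 to 0.228, among them the fits without any 1 of control 1, 2 or 3, MG132 2 or MG132 3 (0.0822 to 0.153). With MG132 1 alone against controls 1 and 2, which have like fragment lengths, the difference was 0.46, and it was 0.98 for MG132 2 and 3 against control 3.

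ATF3 encodes an early stress factor that is known to repress as well as activate stress genes. Its level was 15.3, 12.1 and 10.1 FPKM after reversine, 3.93, 4.31 and 3.39 after BafA1, 10.7, 14.9 and 16.2 after MG132, and 1.95, 2.42 and 2.27 in controls. Every treated library was above every control, and the reversine and MG132 libraries covered the same range. ATF3 rose 5.64 times in the mean after reversine, to 12.5 ± 2.60 FPKM against 2.21 ± 0.24 in controls (log2 difference 2.06 ± 0.23, limma adjusted p 0.00245). MG132 gave 13.96 ± 2.87 FPKM (log2 difference 2.20 ± 0.23, limma adjusted p 0.000342). BafA1 gave 3.88 ± 0.46 FPKM, 1.75 times the control mean, which did not pass (log2 difference 0.60, limma adjusted p 0.478, unadjusted 0.0291). ATF3 has 9 transcripts in the table, and the value it would take with no reads was estimated at 1.29 to 1.48 FPKM in controls, 61.8% of the control mean. With that value taken off in each library, the mean was 13.0 times that of controls after reversine, 2.56 times after BafA1 and 14.5 times after MG132, so these folds rest on a small control signal.

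ATF5, a factor translated under stress in much the same way as ATF4, did not pass in any comparison. It was at 26.1, 17.3 and 20.8 FPKM after reversine, 21.9, 21.2 and 23.5 after BafA1, 25.5, 25.1 and 28.9 after MG132, and 28.4, 28.96 and 31.9 in controls. The reversine and BafA1 libraries were all below the controls, with log2 differences of -0.47 and -0.41 (limma adjusted p 0.246 and 0.478), and 1 MG132 library overlapped them (-0.16, limma adjusted p 0.452). ATF5 overlaps NUP62, a nuclear pore gene that fell by 1.17 on the log2 scale after reversine and by 1.03 after MG132 (limma adjusted p 0.00278 and 0.00116), and how reads were divided between the 2 genes is not known.

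TRIB3 encodes a pseudokinase that binds ATF4 and CHOP and dampens their activity. Its level was 13.1, 26.2 and 26.4 FPKM after reversine, 20.3, 20.6 and 18.6 after BafA1, 127, 68.1 and 69.8 after MG132, and 23.0, 20.8 and 22.4 in controls. The MG132 libraries stood clear of all others. Reversine 1 was below every control and reversine 2 and 3 were above every control. TRIB3 averaged 88.3 ± 33.5 FPKM after MG132 and 22.1 ± 1.14 in controls (log2 difference 1.89 ± 0.30, limma adjusted p 0.00327). The MG132 libraries differed between the fragment classes, as MG132 1 exceeded controls 1 and 2 by 2.48, and MG132 2 and 3 exceeded control 3 by 1.58. The reversine difference of -0.07 did not pass (limma adjusted p 0.89) and changed sign without reversine 1 (0.25).

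PPP1R15A encodes GADD34, the phosphatase subunit that removes the phosphate from eIF2alpha and so closes the feedback loop. It was at 64.5, 54.8 and 57.9 FPKM after reversine, 32.1, 29.35 and 37.5 after BafA1, 132, 158 and 162 after MG132, and 42.2, 42.2 and 40.2 in controls. None of the treated groups overlapped the controls, and the BafA1 libraries were below them. PPP1R15A averaged 151 ± 16.4 FPKM after MG132 and 41.5 ± 1.12 in controls, 3.63 times as much (log2 difference 1.83 ± 0.13, limma adjusted p 4.3e-05). The reversine difference of 0.49 and the BafA1 difference of -0.33 did not pass (limma adjusted p 0.108 and 0.478).

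CHAC1 encodes an enzyme that degrades glutathione and is a well-known target downstream of ATF4. It was at 3.26, 4.39 and 4.99 FPKM after reversine, 2.52, 3.3 and 1.97 after BafA1, 6.66, 5.76 and 5.08 after MG132, and 5.42, 4.34 and 3.77 in controls. The reversine and MG132 libraries overlapped the controls, and the BafA1 libraries were below all of them. None of these differences passed, with -0.08 after reversine, -0.62 after BafA1 and 0.32 after MG132 (limma adjusted p 0.835, 0.478 and 0.361). The MG132 difference passed as higher with the correction for GC content and length (0.78, limma adjusted p 0.0186) and in none of the other 15 alternatives.

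GDF15 was the member with the largest difference from control after reversine. Its level was 6.33, 12.7 and 12.7 FPKM after reversine, 0.47, 0.58 and 0.24 after BafA1, 6.15, 4.88 and 5.8 after MG132, and 0.57, 0.33 and 0.36 in controls. The reversine and MG132 libraries were far above the others, and BafA1 overlapped the controls. GDF15 averaged 10.6 ± 3.67 FPKM after reversine and 0.42 ± 0.13 in controls (log2 difference 2.97 ± 0.25, limma adjusted p 0.000569). After MG132 it averaged 5.61 ± 0.66 FPKM (log2 difference 2.22 ± 0.25, limma adjusted p 0.000446), and after BafA1 0.43 ± 0.17 (log2 difference 0.01, limma adjusted p 0.996).

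Adding 1 to each value compresses the GDF15 difference, because the control level is below 1 FPKM. The table gives GDF15 a single transcript, so its reads could be estimated from the value that 1 read is worth in each library. They came to 65, 105 and 104 after reversine, 3, 3 and 1 after BafA1, 48, 48 and 51 after MG132, and 5, 2 and 3 in controls. The estimated rate was 31.3 times that of controls after reversine (95% exact interval 16.8 to 66.0), 0.902 times after BafA1 (0.291 to 2.62) and 16.7 times after MG132 (8.85 to 35.6). These intervals cover counting error alone, and 10 control reads are what limits them. GDF15 was lowest of the 10 genes by level after BafA1, after MG132 and in controls, and CHAC1 was lowest after reversine. Among all tested genes the GDF15 mean stood at percentile 52.8 after reversine, 0.208 after BafA1, 40.7 after MG132 and 2.18 in controls. Because GDF15 passed the filter through its reversine and MG132 libraries alone, the low percentiles in the other groups follow from that filter.

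**Figure D2:**
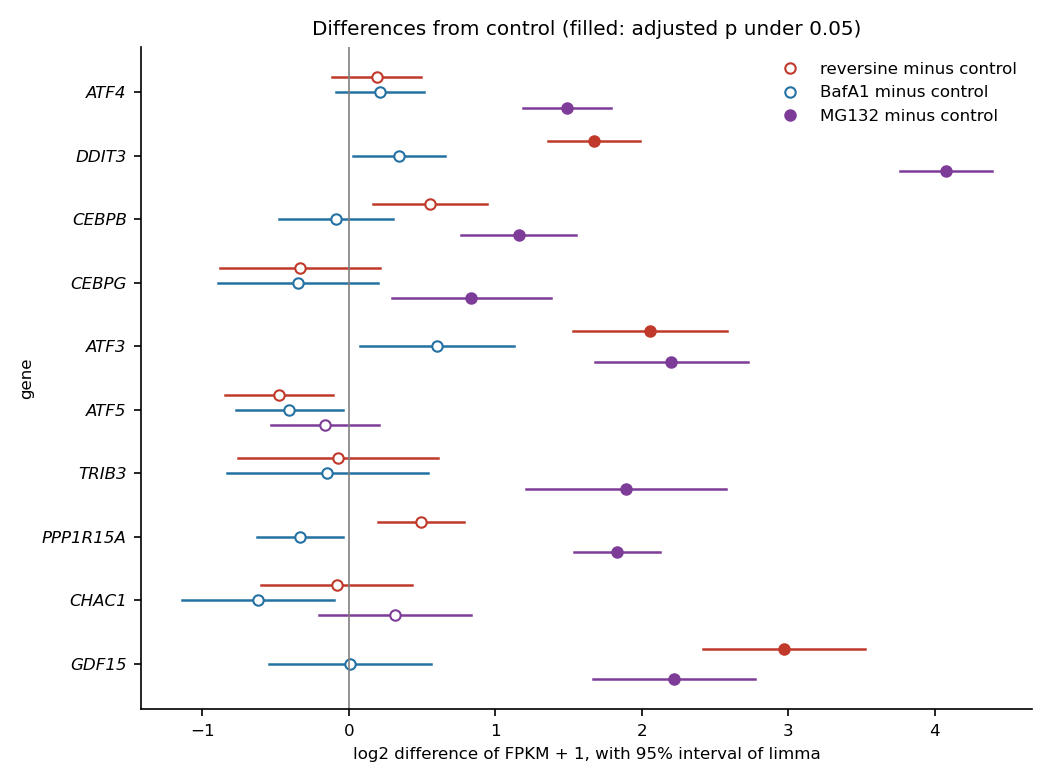
Log2 differences of FPKM + 1 from control for the 10 genes, with limma's 95% intervals; filled points have an adjusted p under 0.05. After MG132 8 genes are filled, led by DDIT3 at 4.08; after reversine DDIT3, ATF3 and GDF15 are filled; after BafA1 none is, and no BafA1 value reaches 1.

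The treatments were then set against each other, with different exposure and harvest times. Between MG132 and reversine, 5 of 10 genes were higher after MG132, namely ATF4, DDIT3, CEBPG, TRIB3 and PPP1R15A, where 6.51% of tested genes were called and 2.99% as higher. DDIT3 was at 387 ± 59.3 FPKM after MG132 and 72.0 ± 5.55 after reversine (log2 difference 2.40, limma adjusted p 2.92e-05). TRIB3 differed by 1.97 and PPP1R15A by 1.34 (limma adjusted p 0.00487 and 0.000401). ATF3 did not differ by the test, with 13.96 ± 2.87 FPKM after MG132 and 12.5 ± 2.60 after reversine, and the 95% interval of the log2 difference was -0.38 to 0.67. GDF15 was the only one of the 10 genes with a lower mean after MG132 than after reversine (5.61 ± 0.66 against 10.6 ± 3.67 FPKM). Every MG132 library was below every reversine library, and the difference of -0.76 did not pass (limma adjusted p 0.0917) but passed without reversine 1 (-1.06, 0.00561) or MG132 1 (-0.81, 0.0343). The CEBPG call (1.17, limma adjusted p 0.0206) was lost without reversine 2, reversine 3, MG132 2 or MG132 3 (up to 0.0887).

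Between MG132 and BafA1, 9 of 10 genes were higher after MG132 and ATF5 did not pass, where 10.9% of tested genes were called and 4.49% as higher. CHAC1, which was not called against control, was among them, with 5.83 ± 0.79 FPKM after MG132 and 2.60 ± 0.67 after BafA1 (log2 difference 0.94, limma adjusted p 0.0302). The CHAC1 call did not hold without BafA1 1, BafA1 3, MG132 2 or MG132 3 (limma adjusted p up to 0.119), and that of CEBPG (1.19) without BafA1 1, BafA1 2, MG132 2 or MG132 3 (up to 0.0606). Between reversine and BafA1, DDIT3, ATF3, PPP1R15A and GDF15 were higher after reversine, 4 of 10 genes, where 1.23% of tested genes were called and 0.443% as higher. PPP1R15A was at 59.0 ± 4.95 FPKM after reversine and 33.0 ± 4.12 after BafA1 (log2 difference 0.83, limma adjusted p 0.0177). Leaving out the 4 libraries of negative GC slope made that count of 4 a 1, and a fit of these groups alone made it 0. Those fits called 171 and 2 of all tested genes, against 377 in the main fit. The PPP1R15A call was lost without reversine 2, reversine 3, BafA1 1 or BafA1 2 (limma adjusted p up to 0.0839), and that of ATF3 without any 1 of the 6 libraries but reversine 3 (up to 0.1).

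Genes upstream of ATF4 were counted next. Of 18 genes for the eIF2alpha kinases, their phosphatases and the exchange factor eIF2B, 0 were called after reversine or BafA1 and 2 rose after MG132, where 2.09%, 0.264% and 14.8% of all tested genes were called. Their medians were -0.03, -0.11 and 0.15. The ones that rose were EIF2AK3, the gene of the endoplasmic reticulum kinase PERK, with 9.18 ± 2.39 FPKM after MG132 and 3.26 ± 0.42 in controls (log2 difference 1.23, limma adjusted p 0.0201), and DNAJC3, an inhibitor of these kinases, with 26.9 ± 12.3 FPKM and 5.2 ± 0.85 in controls (2.06, 0.0214). Both calls were lost without any 1 of control 1, 2 or 3, MG132 2 or MG132 3, with adjusted p up to 0.0823 and 0.0867. Without MG132 1 the list had 9 calls, in a fit that called 13046 of all 30712 tested genes. In a fit of 2 groups only, 0 genes of any of the 7 pathway lists were called after reversine. That fit called 11 of all tested genes, against 642 in the main fit, so the 0 is not particular to these lists. After MG132 such a fit gave the upstream genes 0 calls, the death genes 3, the bZIP factors 6 and the p53 targets 3. It too called fewer of all tested genes than the main fit, which called 4549.

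Known ATF4 targets outside the 10 genes moved in both directions. Of 29 tested, 2 rose and 6 fell after reversine, 2 rose after BafA1, and 6 rose and 13 fell after MG132, with medians of -0.57, 0.02 and -0.78. The shares of all tested genes called in either direction were 2.09%, 0.264% and 14.8%. SLC7A11, the cystine transporter, rose to 21.97 ± 10.9 FPKM after MG132 against 2.41 ± 0.14 in controls (log2 difference 2.60, limma adjusted p 0.00664). SESN2, a stress-induced inhibitor of mTORC1 signalling, rose to 48.5 ± 6.40 FPKM after MG132 and 21.9 ± 2.51 after reversine, against 7.49 ± 0.37 in controls (2.54 and 1.43). CTH, which makes cysteine, rose by 1.78 after MG132.

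Genes of serine and proline synthesis and of amino acid uptake were among those that fell. EIF4EBP1, a repressor of cap-dependent translation, was at 58.8 ± 20.6 FPKM after MG132 and 295 ± 9.88 in controls (log2 difference -2.36, limma adjusted p 0.00124). PHGDH, the first enzyme of serine synthesis, was at 60.7 ± 16.1 FPKM after reversine and 177 ± 1.57 in controls (-1.56, limma adjusted p 0.00264). The other largest falls were PCK2 (-1.61) and SLC7A1 (-1.45) after MG132, and SLC7A1 (-1.54) and PSAT1 (-1.38) after reversine. The SLC7A1 call after reversine was lost without any 1 of its 6 libraries (limma adjusted p up to 0.198) and that of PSAT1 without any of 5, all but reversine 1 (up to 0.0879). PCK2 was lost without any of 5, all but MG132 1 (up to 0.0765), and SLC7A1 after MG132 without control 1, control 3, MG132 2 or MG132 3 (up to 0.0694).

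After BafA1, DDIT4, an mTORC1 inhibitor, rose to 267 ± 7.51 FPKM against 51.2 ± 4.66 in controls (log2 difference 2.37, limma adjusted p 0.00101) and was called in all 16 alternatives. VLDLR, a lipoprotein receptor, rose by 1.25, a call lost without any 1 of its 6 libraries (limma adjusted p up to 0.175). The count of called ATF4 targets after reversine, 8, was 4 without control 1, control 3 or reversine 2, 5 without control 2, 4 with columns scaled to a common total and 0 in the fit of 2 groups only, in a range of 0 to 12 over 16 alternatives, and that after MG132 was 12 without control 1 and 24 at the most, against 19 with all libraries. Calls among all tested genes after MG132 ran from 2181 to 13046 over the same alternatives, against 4549 with all libraries. After reversine they were 247 to 584 without single libraries and 11 in the fit of 2 groups only, against 642 in the main fit. The highest was 1104. The lower counts of ATF4 targets after reversine thus came from fits with fewer calls among all genes, and are not particular to this list. KLHL24, the other target that rose after reversine (1.15, limma adjusted p 0.0125), was lost without control 1 or reversine 2 (up to 0.0688).

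Of 12 genes linked to cell death by CHOP, 1 fell after reversine, 0 were called after BafA1, and 4 rose and 1 fell after MG132, where 14.8% of all tested genes were called after MG132 and 7.14% as higher. The shares of all tested genes called were 2.09% after reversine and 0.264% after BafA1. The list had medians of 0.22, -0.16 and 0.63 in the order given. PMAIP1, which encodes the death promoter NOXA, was at 37.5 ± 13.1 FPKM after MG132 and 9.19 ± 0.67 in controls (log2 difference 1.85, limma adjusted p 0.00389). CASP4, an inflammatory caspase, rose by 1.75, a call lost without control 1 or MG132 2 (limma adjusted p up to 0.0694), and CAMK2G, a calcium-dependent kinase, rose by 1.15. BCL2, a survival gene that CHOP is known to repress, was at 1.24 ± 0.20 FPKM after reversine, 0.82 ± 0.26 after MG132 and 3.78 ± 1.08 in controls (log2 differences -1.08 and -1.38). The reversine call of BCL2 was lost without reversine 2 (limma adjusted p 0.0569). The count after reversine was 3 without reversine 1 and 4 with the correction for GC content and length, and that after MG132 was 3 without control 1 or MG132 2 and 8 with the correction. Over all genes, the corrected fit called 1104 after reversine and 5734 after MG132, against 642 and 4549 in the main fit. Fits without single libraries called 247 to 584 after reversine and 2435 to 13046 after MG132.

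The other arms of the unfolded protein response, which run through ATF6 and XBP1 and raise chaperones of the endoplasmic reticulum, were mostly higher after MG132. Of 20 genes, 2 rose after reversine, 0 were called after BafA1 and 12 rose after MG132, with medians of 0.14, -0.10 and 1.10. Among all tested genes, 0.801% were called as higher after reversine and 7.14% after MG132, and 0.264% in either direction after BafA1. HSPA5, the chaperone BiP, was at 1477 ± 288 FPKM after MG132 and 169 ± 4.29 in controls (log2 difference 3.10, limma adjusted p 8.16e-06). HERPUD1, a component of endoplasmic reticulum degradation, was at 63.5 ± 4.46 FPKM after reversine, 187 ± 27.1 after MG132 and 31.5 ± 1.67 in controls (0.99 and 2.52). HSP90B1 rose by 2.46 after MG132, and DNAJB9, a cochaperone of BiP, by 1.12 after reversine. Of the reversine calls, HERPUD1 was lost without control 3 (limma adjusted p 0.0542) and DNAJB9 without control 1 or control 3 (up to 0.0536). The MG132 count was 7 without MG132 2 or MG132 3. Over all tested genes, fits without single libraries called 2435 to 13046 after MG132, against 4549 with all libraries.

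Related bZIP factors, some of which can form dimers with the members, moved in both directions. Of 31 tested, 2 rose and 2 fell after reversine, 0 were called after BafA1, and 7 rose and 6 fell after MG132, with medians of 0.14, 0.04 and 0.14. Over all tested genes, 2.09%, 0.264% and 14.8% were called in either direction. MAFG, a small Maf protein, was at 80.3 ± 4.76 FPKM after MG132 and 17.6 ± 1.86 in controls (log2 difference 2.13, limma adjusted p 2.2e-05). FOSB was at 1.46 ± 0.285 FPKM after reversine, 2.56 ± 0.185 after MG132 and 0.29 ± 0.14 in controls (0.93 and 1.46), and it reached 1 FPKM in no control or BafA1 library, so it passed the filter through the groups in which it was high. JUNB rose by 1.22 after reversine and NFIL3 by 1.35 after MG132. FOSL1, an AP-1 factor of growing cells, was at 398 ± 68.6 FPKM after reversine, 263 ± 68.2 after MG132 and 729 ± 41.1 in controls (-0.89 and -1.49). BATF3 fell by 1.36 after reversine and by 1.33 after MG132, and FOSL2 fell by 2.60 after MG132.

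Several of these bZIP calls lay near the threshold. FOSL1 after reversine was lost without any 1 of its 6 libraries (limma adjusted p up to 0.198), BATF3 after reversine without any but reversine 2 (up to 0.0931) and JUNB without control 1, control 3 or reversine 2 (up to 0.061). FOSL2 and NFIL3 after MG132 were lost without any 1 of the 6 but MG132 1 (up to 0.133 and 0.103). The MG132 count was 7 without any 1 of those 5 libraries and 18 at the most. Calls among all tested genes after MG132 ran from 2181 to 13046 over the alternatives, against 4549 with all libraries.

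Relatives of the effector members did not share a direction. Of 14 tested TRIB, CHAC and TGF-beta superfamily relatives, receptors and processing genes, BMP2 rose after reversine, INHBA fell after BafA1, and 2 rose and 5 fell after MG132, with medians of -0.04, -0.12 and -0.30. Calls in either direction made up 2.09%, 0.264% and 14.8% of all tested genes. BMP2 was at 4.48 ± 0.41 FPKM after reversine, 1.59 ± 0.37 after MG132 and 0.56 ± 0.22 in controls (log2 differences 1.82 and 0.73), and like FOSB it passed the filter through the reversine and MG132 libraries alone. INHBA, an activin subunit, was at 28.96 ± 2.21 FPKM after BafA1 and 67.3 ± 9.91 in controls (-1.18, limma adjusted p 0.022), a call lost without any 1 of 5 libraries, all but control 2 (up to 0.174). GDF11 was at 8.30 ± 3.73 FPKM after MG132 and 45.7 ± 4.59 in controls (-2.39), and GDF6 fell by 2.34 and TRIB2 by 1.72. TGFB2 rose by 2.14 after MG132 and was lost without any 1 of 5 libraries, all but MG132 1 (limma adjusted p up to 0.088).

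**Figure D3:**
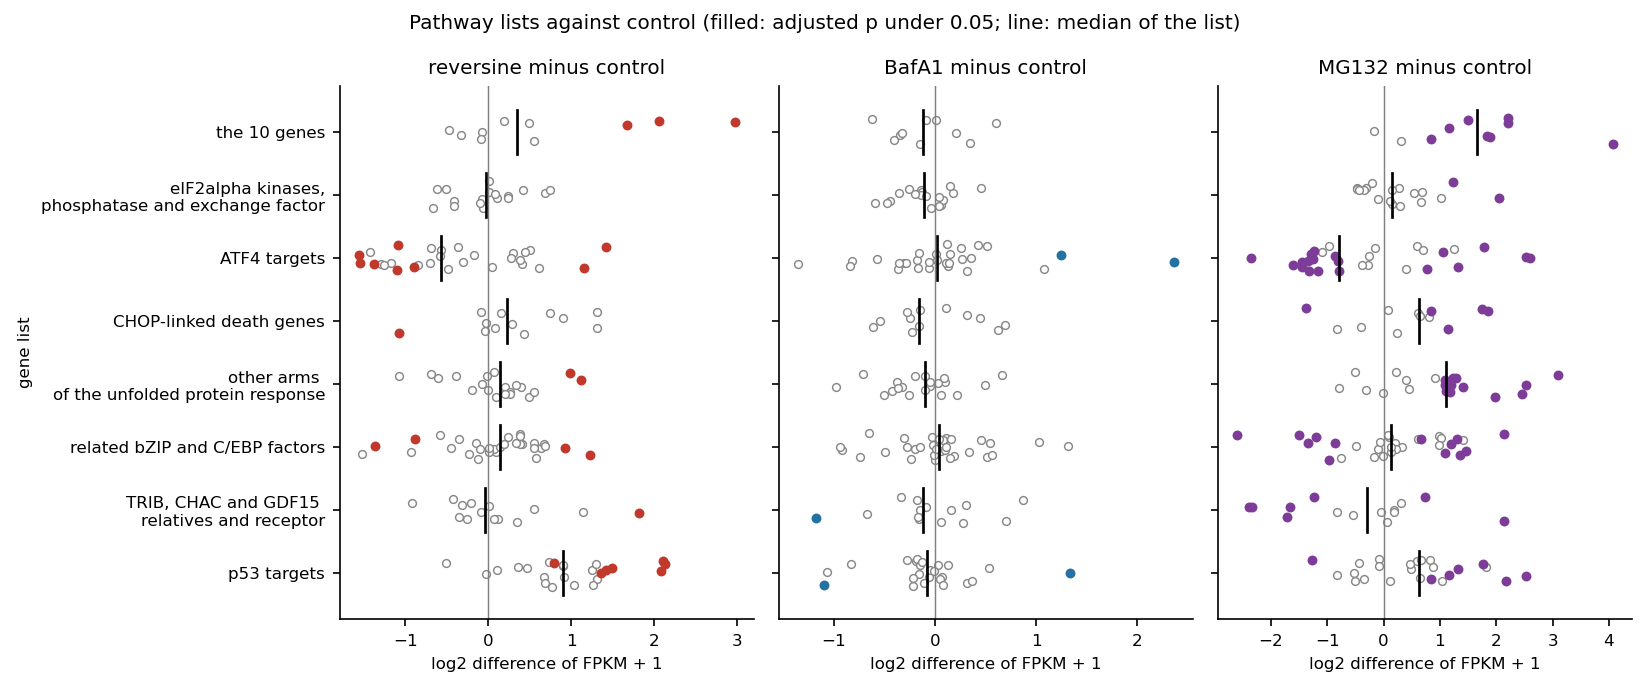
Log2 differences of FPKM + 1 from control for the 10 genes and 7 pathway lists, 1 point a gene, with filled points at an adjusted p under 0.05 and a line at each list's median; the 3 panels have different horizontal scales. After MG132 the 10 genes (median 1.66) and the other arms of the unfolded protein response (median 1.10) lie mostly above 0, while ATF4 targets (median -0.78) lie on both sides.

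Because GDF15 is also a p53 target, p53 targets were counted with it. Of 24 others, 7 rose after reversine, 1 rose and 1 fell after BafA1, and 6 rose and 1 fell after MG132, with medians of 0.91, -0.08 and 0.62. Among all tested genes, 0.801% were called as higher after reversine and 7.14% after MG132, and 0.264% in either direction after BafA1. The reversine count of 7 was 0 in the fit of 2 groups only, 14 with the correction for GC content and length and 12 without the 4 libraries of negative GC slope. Over all genes after reversine, the fit of 2 groups called 11 and the corrected fit 1104, against 642 in the main fit. SESN2 is in the p53 list and among the ATF4 targets. Other calls after MG132 were counted in more than 1 list as well. They were shared by the p53 targets and the death genes, or by the other unfolded protein response arms and the bZIP factors. BTG2, an antiproliferative gene, was at 17.3 ± 0.66 FPKM after reversine and 3.18 ± 0.07 in controls (log2 difference 2.13), and CDKN1A rose by 2.09. MDM2, the ligase that degrades p53, was at 168 ± 91.3 FPKM after MG132 and 32.0 ± 5.15 in controls (log2 difference 2.17, limma adjusted p 0.0123), a call lost without MG132 2 or MG132 3 (up to 0.0571). GADD45A, a DNA damage gene, rose by 1.76 after MG132. PLK2 fell by 1.26 after MG132, a call lost without any 1 of 5 libraries, all but MG132 1 (limma adjusted p up to 0.0931). TP53INP1 rose by 2.11 after reversine and by 1.34 after BafA1, and the BafA1 call was lost without any 1 of its 6 libraries (up to 0.234). The count after MG132 was 4 without control 1, control 2 or MG132 2 and 12 without MG132 1. Fits without single libraries called 2435 to 13046 of all tested genes after MG132, the last without MG132 1, against 4549 with all libraries.

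The genes whose levels were most like each member were found by Pearson's r over the 12 libraries on log2(FPKM + 1), among 24380 genes with a symbol and a mean of at least 2 FPKM. These r values are descriptions over libraries that share a treatment, a depth and a GC slope. ATF4 was most like DNAJB1, an HSP40 cochaperone (r = 0.997), ZNF277 (0.99) and BHMT2 (0.989). DNAJB1 averaged 69.0 FPKM after reversine, 72.4 after BafA1, 413 after MG132 and 53.9 in controls. DDIT3 was most like HSPB8, a small heat shock protein gene (r = 0.992), ITPKC (0.991) and the chemokine gene CXCL3 (0.99). HSPB8 had the same order of groups except that BafA1 and control were level, with 41.0 FPKM after reversine, 14.3 after BafA1, 298 after MG132 and 14.7 in controls.

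GDF15 was most like the chemokine gene CCL3 (r = 0.975), the cell cycle inhibitor gene CDKN1A (0.973) and CPA4 (0.968). CCL3 averaged 13.2 FPKM after reversine, 0.52 after BafA1, 7.72 after MG132 and 0.85 in controls. ATF3 was most like ASAH1, the gene of a lysosomal ceramidase (r = 0.973), TSPYL2 (0.972) and the mitochondrially encoded MT-CO1 (0.966). CEBPB was most like NFKB2 (0.981) and ZFYVE27 (0.977), and CEBPG was most like BAG1 (0.981), LRRFIP2 (0.978) and the proteasome subunit gene PSMD11 (0.974). PPP1R15A was most like RND3 (0.991), CD55 (0.991) and IER5 (0.989), and TRIB3 was most like ALKBH6 (0.993), TMEM161A (0.99) and ALDH2 (0.988). The members that did not pass after MG132 had lower r values, with TCHP (0.883) and HNRNPAB (0.868) for ATF5 and CLTB (0.931), CYR61 (0.914) and SPOCD1 (0.904) for CHAC1.

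The 4 libraries of negative GC slope did not treat the members alike. Within reversine, library 1 was the highest for ATF4, CEBPG, ATF3, ATF5 and PPP1R15A and the lowest for DDIT3, CEBPB, TRIB3, CHAC1 and GDF15. Within BafA1, library 3 was the highest for ATF4, CEBPG, ATF5 and PPP1R15A and the lowest for DDIT3, CEBPB, ATF3, TRIB3, CHAC1 and GDF15. Transcripts of TRIB3, CHAC1, GDF15 and CEBPB hold 62.9% to 66.2% GC, and those of the other 6 genes 43.9% to 60.0%. In MG132, libraries 2 and 3 were below library 1 for CEBPB, TRIB3, CHAC1 and GDF15 and, apart from ATF5, where library 2 was the lowest, above it for the other genes. The sign of the MG132 difference was the same within both fragment classes for all 10 genes, with 3.79 and 4.24 for DDIT3, 2.31 and 2.22 for GDF15, and 1.21 and 1.67 for ATF4.

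**Figure D4:**
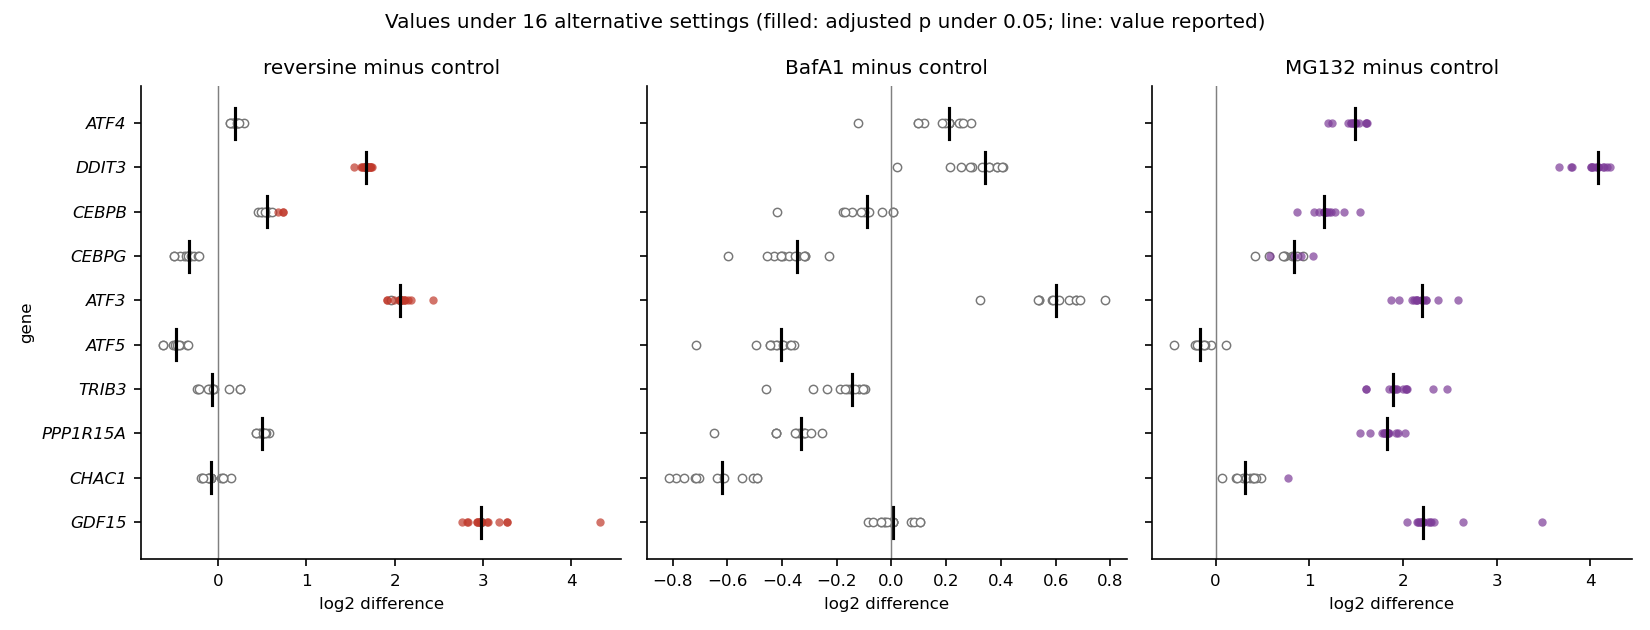
Log2 differences from control of the 10 genes under 16 alternative settings (points) and as reported (black line); filled points have an adjusted p under 0.05, and the horizontal scales differ between panels. DDIT3, ATF3 and GDF15 stay above 1.5 after reversine and MG132 in every setting, while the BafA1 values stay between -1 and 1 with no filled point.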

How the data were processed

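The labels' protocols describe oligo(dT)-selected RNA made into TruSeq libraries with size-selected inserts and sequenced on a HiSeq. The submitters' processing notes name Bowtie 1.0.0, RSEM 1.2.6 and the build hg19 (GRCh37). The header of the deposited table names no unit, and its values were taken as the authors' FPKM because column totals ranged from 962891 to 2057717. The lowest values followed transcript length as RSEM posterior means do, and the value of 1 read was read from them, which gave the estimated depths and the GDF15 reads.

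Genes were tested with limma 3.58.1 with a trend in R 4.3.3, on log2(FPKM + 1), with rows kept where 3 or more libraries reached 1 FPKM, in 1 fit of 4 groups with 8 residual and 1.26 prior degrees of freedom, with Benjamini-Hochberg adjustment over 30712 genes. Adding 1 understates differences of low genes. The members and lists were chosen with earlier results of these data known. All 10 members were named, and of each list the called genes with the 3 highest and 3 lowest differences from control, at most; for likeness, the 3 highest r. Some genes this rule chose are not reported here. GENCODE v29 gave GC content, lengths and overlapping genes, for 82.5% of tested rows. Promoters came from RefSeq on GRCh38.p14, and no coordinates were carried between builds. No strand setting is stated. Alternatives were other pseudocounts, filters, scalings and corrections, fits of 2 groups, and fits without single libraries. A term for the fragment class was added after the data were seen.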

Additional observations from a re-analysis of the deposited data

How the results depend on the processing

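The count of called members was refitted under 16 alternatives a comparison. After reversine it was 3 as reported, 0 in a fit of 2 groups only and 3 to 4 when single libraries were left out; ATF3 was also lost with columns scaled to a common total (0.0554). After BafA1 it was 0 throughout, and after MG132 it was 7 to 8 without single libraries, against 8. For reversine minus BafA1 the count of 4 was 1 with a common total, 0 with 2 groups only, 1 without the 4 libraries with a negative GC slope and 2 to 4 without single libraries. For MG132 minus BafA1 it was 7 to 9, against 9, and for MG132 minus reversine 4 to 7, against 5, with 3 in the fit of 2 groups only. GDF15 passed as lower in MG132 minus reversine in 4 alternatives and CEBPB as higher in 2 (limma adjusted p 0.00561 to 0.0435, and 0.000454 and 0.0461). Changes of sign were limited to differences that were not called. GDF15 after BafA1 came to -0.003 with a pseudocount of 0.1, -0.027 with median-ratio scaling, -0.087 with a common total, -0.037 with the fragment class as a term, and -0.069 to 0.106 without single libraries (below 0 without control 2 or 3 or BafA1 1 or 2, at -0.038, -0.022, -0.017 and -0.069), and ATF4 after BafA1 to -0.122 with a common total. CEBPB after BafA1 came to 0.006 (from -0.169 without single libraries). TRIB3 after reversine came to 0.119 with the GC and length correction and 0.246 without the 4 libraries or reversine 1 (from -0.234 without single libraries). CHAC1 after reversine came to 0.142 with that correction, 0.055 without the 4 libraries or reversine 1 and 0.032 without control 1 (from -0.191 without single libraries). ATF5 after MG132 came to 0.112 with the correction. ATF3 in MG132 minus reversine came to -0.142 with median-ratio scaling, -0.041 without the 4 libraries and -0.032 with the fragment class as a term. The cause was not tested. Over all genes, 642 calls after reversine became 11 to 1104, 81 after BafA1 became 8 to 209, and 4549 after MG132 became 2181 to 13046, the last without MG132 1. Between treatments, 377 calls (reversine minus BafA1) became 2 to 562, 3334 (MG132 minus BafA1) 1413 to 18445 and 2000 (MG132 minus reversine) 256 to 17101. A filter of 5 FPKM moved the median of all genes to 0.35 after reversine, -0.21 after MG132, -0.70 in MG132 minus BafA1 and -0.53 in MG132 minus reversine. A common total moved it to -0.08 after BafA1 and 0.25 in MG132 minus BafA1, and median-ratio scaling moved it to -0.23 in MG132 minus reversine. No paired analysis was possible because the titles number the libraries in series and the groups share no replicate numbers. Depth limits GDF15, which rests on 10 estimated control reads, and ATF3, whose control level is mostly the value of a gene with no reads.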
